A study of Homo sapiens with 6 samples.

Results

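The genes described here carry glucose into NALM6 cells and through the first steps of glycolysis. They are 10 protein-coding genes of 5 steps, listed by name, out of 57905 genes in the count table. SLC2A1 and SLC2A3 encode glucose transporters of the plasma membrane. HK1 and HK2 encode hexokinases, GPI the glucose-6-phosphate isomerase, PFKL, PFKM and PFKP the subunits of phosphofructokinase, and ALDOA and ALDOC aldolases. All 10 symbols were matched through the annotation to identifiers of the count table, and all 10 genes had enough counts to be tested.

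NALM6, written Nalm6 in the sample labels, is an established human line of B cell precursors, grown from an acute lymphoblastic leukemia. THZ1 binds covalently to CDK7, a kinase of transcription and the cell cycle, and blocks it. Total RNA of cells kept for 24 h with 500 nM of THZ1 (3 libraries) or with the solvent DMSO (3 libraries) was sequenced (RNA-SEQ). All 6 libraries come from this 1 line at 1 dose and 1 time. The labels do not say whether the libraries of a treatment came from separate cultures, so the p-values measure the spread between these libraries, which may be technical.

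Glucose enters most blood cells by facilitated transport through proteins of the SLC2A (GLUT) family. Hexokinase then phosphorylates it, which traps it in the cell, the isomerase turns glucose-6-phosphate into fructose-6-phosphate, phosphofructokinase adds a further phosphate in the step that commits the sugar to glycolysis, and aldolase splits the product into smaller sugars. Apart from the isomerase, each of these steps is served by several genes whose products differ in affinity, regulation or tissue. MYC and HIF1A are textbook activators of many of these genes, and both act with partner proteins on short sequences that include the E-box CACGTG.

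The deposited libraries held 11015480 to 11164840 counts with DMSO and 7876402 to 8314306 with THZ1, of which the 10 genes took 0.224% to 0.237% and 0.138% to 0.141%. Mitochondrially encoded mRNA made up 4.06% to 4.12% of the counts with DMSO and 11.5% to 12.4% with THZ1, and with these genes left out before scaling the 10 genes gave the same calls, 3 higher and 6 lower. The label was checked against 10 markers of the B lineage. All 10 were detected and tested, and their summed level was 3569 to 3836 CPM (counts relative to the library's scaled total) with DMSO and 1666 to 1757 CPM with THZ1, with 8 markers lower and 1 higher. Of 10 markers of other cell types, 9 were matched and 5 of these (CD3D, CD3E, GATA1, HBB and EPCAM) had at most 3 counts in any library. The summed level of the 9 was 7.70 to 8.93 CPM with DMSO and 26.3 to 28.3 CPM with THZ1. COL1A1 (3.71 ± 0.592 and 15.7 ± 0.283 CPM, SD, n = 3) and CD14 (0.636 ± 0.0885 and 8.71 ± 1.10 CPM) were called higher, LYZ (2.48 ± 0.646 and 1.39 ± 0.767 CPM) was called lower, and MPO was not called. The part of any of these shifts in the results below was not tested.

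Levels are given as CPM after TMM scaling, which sets the bulk of genes to an equal level between libraries, so that each value is relative to the rest of the RNA and not an amount per cell, and a change of RNA within cells cannot be told apart from a change in which cells were present. Log2 fold changes are THZ1 over DMSO, from the quasi-likelihood test of edgeR, and p-values were adjusted by Benjamini-Hochberg over all 16622 genes tested. A gene was called at an adjusted p-value below 0.05. THZ1 treatment moved most of the transcriptome: 43.5% of all genes tested were called higher and 41.1% lower, and in 84.7% the 3 THZ1-treated libraries did not overlap the 3 DMSO-treated ones. Of the 10 genes, 3 were higher (SLC2A3, ALDOC and GPI), 6 were lower (PFKP, PFKM, HK1, HK2, ALDOA and PFKL) and SLC2A1 was not called. In 9 of the 10 the treatments did not overlap. The median log2 fold change of the 10 was −0.70, against 0.03 over all genes tested. At a log2 fold change of 1.5 or more in either direction, which 24.6% of all genes passed upward and 12.9% downward, 1 of the 10 was higher (SLC2A3) and 1 lower (PFKP), with ALDOC (1.498) and PFKM (−1.44) just short of it. The levels by library show this spread within each step.

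**Figure D1:**
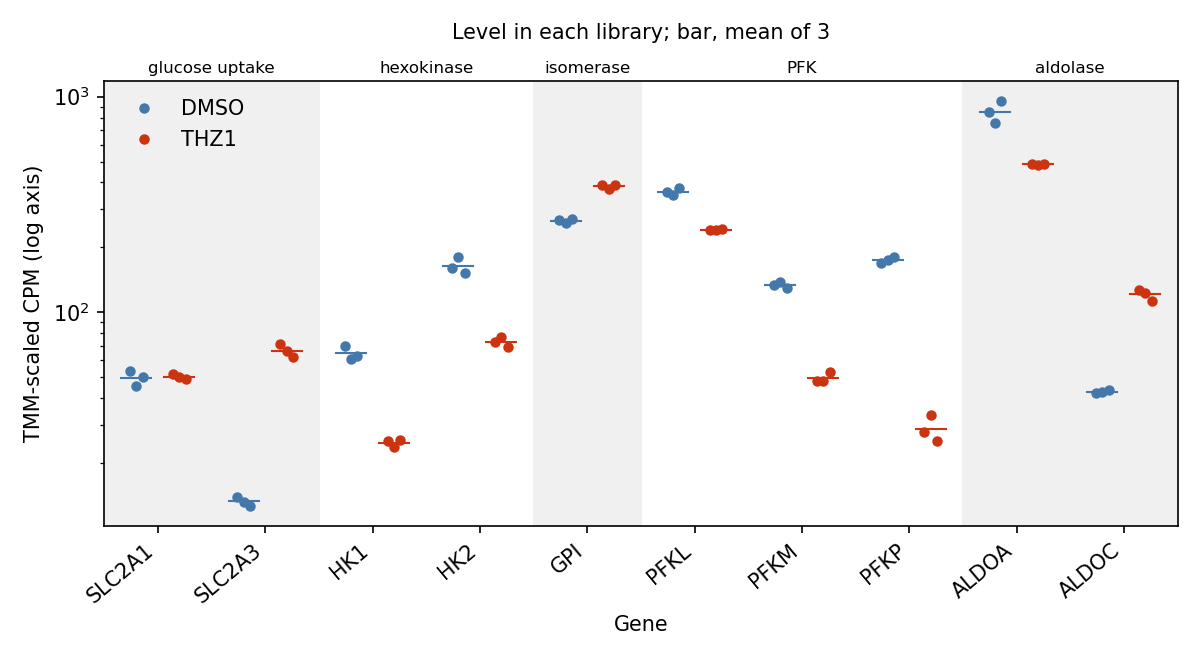
TMM-scaled CPM of the 10 genes in each of the 6 libraries on a log axis, blue for DMSO and red for THZ1, with a bar at the mean of 3 libraries and the genes grouped by step. Within glucose uptake and within aldolase a gene that is higher with THZ1 (SLC2A3, ALDOC) stands beside one that is not (SLC2A1, ALDOA).

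Promoter sequences are shown first for the genes whose window holds the E-box, since these genes went in opposite directions. RefSeq promoter windows (250 bases before to 50 after a start, GRCh38.p14) were matched for 9 of the 10 genes, with 27 windows in all. SLC2A3 had no window, so its promoter was not searched. Both strands were searched, CACGTG being its own reverse complement. The motif lay in 3 of the 27 windows, 1 each of HK2, ALDOA and ALDOC, against 7.26% of all 35116 windows. By gene it lay in 3 of the 9 against 8.77% of 27305 genes. The shares by gene are not a like comparison, since the 9 genes had more windows per gene and so more chances of a match. The stretches below run 5′ to 3′ on the gene's strand with the E-boxes in capitals.
HK2, chr2:74834946-74835056, plus strand: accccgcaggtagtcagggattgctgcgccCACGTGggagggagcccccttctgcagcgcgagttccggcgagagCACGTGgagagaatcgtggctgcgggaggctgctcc
ALDOA, chr16:30064355-30064420, plus strand: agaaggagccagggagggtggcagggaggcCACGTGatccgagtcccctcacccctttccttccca
ALDOC, chr17:28577100-28577145, minus strand: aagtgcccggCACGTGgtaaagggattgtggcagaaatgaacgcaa
The HK2 stretch holds 2 E-boxes, of which the first begins 194 bases before the start. That of ALDOA begins 112 bases and that of ALDOC 240 bases before the start. Of these 3 genes HK2 and ALDOA fell and ALDOC rose (values below), and a match of 6 letters describes the sequence and is no evidence of binding.

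Within the pair of transporters, the transcripts went from mostly SLC2A1 to a nearly even mix. SLC2A3, which encodes the high-affinity transporter GLUT3, rose 4.998-fold, while SLC2A1, which encodes the basal transporter GLUT1, was not called. SLC2A3 (ENSG00000059804, GRCh37 chromosome 12, 8071826 to 8171603, minus strand) had 13.9, 13.2 and 12.7 CPM with DMSO and 70.9, 66.0 and 61.9 CPM with THZ1. Every THZ1-treated library was thus far above every DMSO-treated one. Its log2 fold change was 2.32 (standard error 0.10, edgeR adjusted p = 1.5e-19), higher than in 81.8% of the genes tested. SLC2A1 (ENSG00000117394, chromosome 1, 43391024 to 43424564, minus strand) had 53.6, 45.5 and 49.8 CPM with DMSO and 51.7, 49.8 and 48.9 CPM with THZ1, and the treatments overlapped. The log2 fold change of SLC2A1 was 0.02 (standard error 0.09, edgeR adjusted p = 0.873), and the 95% interval of the difference in log2 CPM ran from −0.18 to 0.22. Its call and direction depended on the scaling, with 0.21 and a call as higher by upper quartile factors (edgeR adjusted p = 0.0314) and −0.23 and a call as lower by library sizes alone (edgeR adjusted p = 0.0184).

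Reads of SLC2A3 could also come from near copies of the gene. SLC2A14, its closest paralog, had at most 1 count in any library, and the pseudogene SLC2A3P4 had 2, 1 and 0 counts with DMSO and 20, 36 and 21 with THZ1, against 150 to 168 and 463 to 539 counts on SLC2A3 itself. The ratio of counts within a library does not depend on scaling. The log2 ratio of SLC2A3 to SLC2A1 was −1.94, −1.78 and −1.97 with DMSO and 0.46, 0.41 and 0.34 with THZ1, so that SLC2A1 had more counts in every DMSO-treated and SLC2A3 in every THZ1-treated library. The ratio was 4.92-fold higher with THZ1, a difference of 2.30 on the log2 scale (95% interval 2.11 to 2.49, two-sided exact permutation test p = 0.1, adjusted over the 6 isozyme pairs 0.12). The smallest value that this exact permutation test can give with 3 libraries against 3 is p = 0.1, here and for every pair and step below, so none of them can pass 0.05.

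Both hexokinase genes fell. HK1, the housekeeping hexokinase, and HK2, the inducible hexokinase of growing and tumour cells, were 2.60-fold and 2.26-fold lower. HK1 (ENSG00000156515, chromosome 10, 71029740 to 71161640, plus strand) had 69.9, 60.9 and 62.6 CPM with DMSO and 25.2, 23.7 and 25.5 CPM with THZ1. HK2 (ENSG00000159399, chromosome 2, 75061254 to 75120486, plus strand), the gene with the pair of E-boxes above, had 161, 181 and 153 CPM with DMSO and 72.9, 77.1 and 68.8 CPM with THZ1. For both genes every THZ1-treated library was below every DMSO-treated one. The log2 fold changes were −1.38 (standard error 0.10, edgeR adjusted p = 1.9e-14) for HK1 and −1.18 (standard error 0.08, edgeR adjusted p = 7.9e-15) for HK2. The log2 ratio of HK2 to HK1 was 1.20, 1.57 and 1.29 with DMSO and 1.53, 1.70 and 1.43 with THZ1. These values overlapped, and the difference was 0.20 (95% interval −0.18 to 0.58, exact permutation test p = 0.3, adjusted p = 0.3), so no difference between both genes' changes was detectable, and one of up to 0.58 lies within the interval.

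GPI, the only isomerase of its step, rose 1.44-fold. GPI (ENSG00000105220, chromosome 19, 34850385 to 34893318, plus strand) had 268, 260 and 270 CPM with DMSO and 387, 374 and 388 CPM with THZ1. The treatments did not overlap. Its log2 fold change was 0.53 (standard error 0.06, edgeR adjusted p = 8.2e-09), which is not far from the middle of all genes tested, as 61.4% of them had a lower value.

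All 3 phosphofructokinase genes fell, by unequal amounts. PFKP, the platelet-type subunit that many tumour cells express, was 6.05-fold lower, PFKM, the muscle-type subunit, 2.71-fold, and PFKL, the liver-type subunit, 1.51-fold. PFKP (ENSG00000067057, chromosome 10, 3108525 to 3179910, plus strand) had 169, 174 and 180 CPM with DMSO and 27.7, 33.5 and 25.3 CPM with THZ1. No other of the 10 genes fell as far, and only 2.97% of all genes tested had a lower log2 fold change than its −2.60 (standard error 0.09, edgeR adjusted p = 3.8e-22). PFKM (ENSG00000152556, chromosome 12, 48498922 to 48540187, plus strand) had 134, 139 and 130 CPM with DMSO and 47.7, 47.9 and 52.8 CPM with THZ1, and the log2 fold change of PFKM was −1.44 (standard error 0.08, edgeR adjusted p = 4.9e-17). PFKL (ENSG00000141959, chromosome 21, 45719934 to 45747259, plus strand) had 363, 349 and 376 CPM with DMSO and 239, 240 and 244 CPM with THZ1, and the log2 fold change of PFKL was −0.59 (standard error 0.07, edgeR adjusted p = 1.1e-09). In each of the 3 genes the treatments did not overlap. PFKM shares bases with SENP1 on the opposite strand, which had 377 to 470 counts with DMSO and 100 to 114 with THZ1 beside 1543 to 1691 and 346 to 395 counts on PFKM, and the strand setting of the counting is not given in the sources used here.

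Ratios within a library separated the phosphofructokinase genes in all 3 pairs. The log2 ratio of PFKP to PFKL was −1.10, −1.01 and −1.06 with DMSO and −3.11, −2.84 and −3.27 with THZ1, a difference of −2.01 (95% interval −2.37 to −1.66). That of PFKM to PFKL was −1.43, −1.33 and −1.53 against −2.33, −2.32 and −2.20, a difference of −0.85 (−1.04 to −0.66). The log2 ratio of PFKP to PFKM was 0.33, 0.33 and 0.47 with DMSO and −0.78, −0.51 and −1.06 with THZ1, so PFKP had more counts than PFKM in every DMSO-treated library and fewer in every THZ1-treated one. Its difference was −1.16 (−1.62 to −0.71). In each pair the treatments did not overlap, with p = 0.1 by the exact permutation test and 0.12 after adjustment.

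The aldolase genes moved in opposite directions. ALDOA, the main aldolase of most tissues and the most abundant of the 10 transcripts, was 1.76-fold lower, whereas ALDOC, known as the aldolase of brain, was 2.82-fold higher. ALDOA (ENSG00000149925, chromosome 16, 30075485 to 30081778, plus strand) had 847, 756 and 956 CPM with DMSO and 488, 484 and 485 CPM with THZ1. The DMSO-treated libraries were spread (853 ± 100.03 CPM, SD, n = 3) and the THZ1-treated ones nearly alike (486 ± 2.51 CPM), but they did not overlap, and the log2 fold change was −0.81 (standard error 0.07, edgeR adjusted p = 1.1e-11). ALDOC (ENSG00000109107, chromosome 17, 26900133 to 26903966, minus strand) had 42.3, 42.5 and 43.7 CPM with DMSO and 127, 123 and 113 CPM with THZ1. Its THZ1-treated libraries were all far above those with DMSO, and the log2 fold change was 1.498 (standard error 0.08, edgeR adjusted p = 2.3e-17). Both genes carry an E-box in the promoter stretches printed above.

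The log2 ratio of ALDOC to ALDOA was −4.32, −4.15 and −4.45 with DMSO and −1.94, −1.97 and −2.10 with THZ1. ALDOA thus kept more counts than ALDOC in every library, by a much smaller margin with THZ1. The difference was 2.30 (95% interval 2.03 to 2.58, exact permutation test p = 0.1, adjusted p = 0.12), or 4.93-fold. A lncRNA on the opposite strand of ALDOC, ENSG00000265168, had 195 to 229 counts with DMSO and 296 to 371 with THZ1, beside 512 to 518 and 843 to 965 counts on ALDOC, and reads of this pair cannot be told apart if the counting ignored strand. The ALDOA pseudogene ALDOAP1 had 0 counts with DMSO and 5 to 12 with THZ1, beside at least 3493 on ALDOA.

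**Figure D2:**
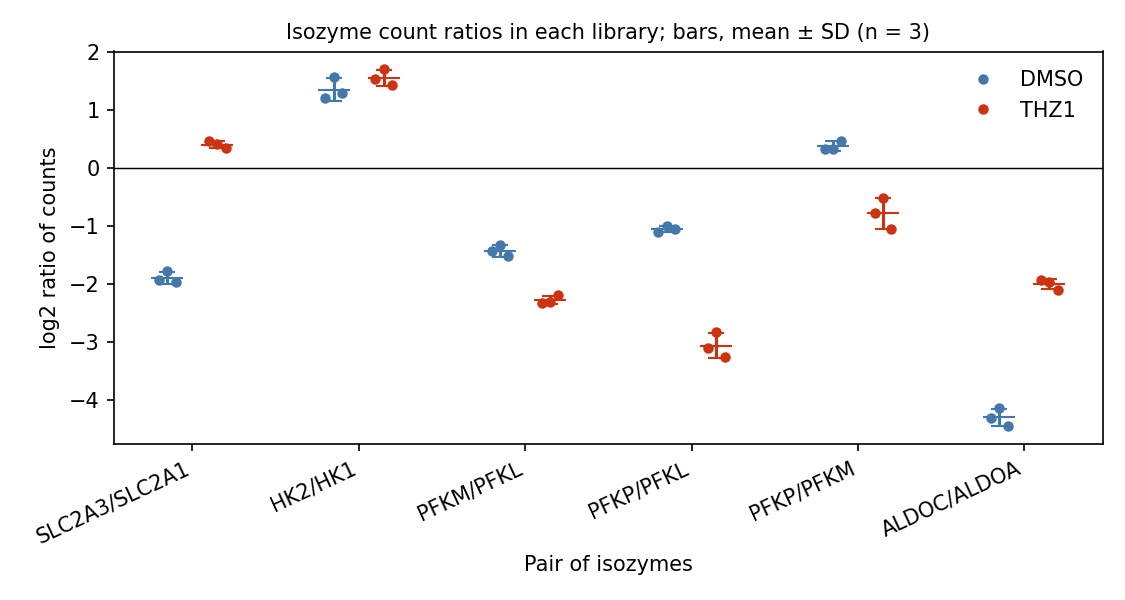
Log2 ratio of the counts of 2 isozymes in each library (0.5 added to each count), blue for DMSO and red for THZ1, with mean ± SD of 3 libraries. The pair HK2/HK1 overlaps between treatments, and the other 5 pairs do not.

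Levels of different genes can be compared only per length of transcript, and for this the deposited FPKM values (fragments per kilobase of transcript, scaled to library size) were used on a linear scale. They hold 9 of the 10 genes, as HK1 has no row in the table used here. Within a treatment the sorted values of this table were nearly alike between libraries, and no step that would make them so is given in the sources used here. The SDs and intervals from FPKM below may therefore not measure the full spread between replicates. With DMSO the order was ALDOA (650.3 ± 20.4 FPKM, SD, n = 3), PFKL (116 ± 1.46), PFKP (89.3 ± 2.89), HK2 (77.0 ± 9.22), GPI (70.3 ± 0.917), PFKM (51.8 ± 2.93), ALDOC (45.5 ± 0.398), SLC2A1 (31.3 ± 2.53) and SLC2A3 (6.93 ± 0.222). The libraries of HK2 overlapped those of both PFKP and GPI, its neighbours, and no other neighbours overlapped. With THZ1 the order was ALDOA (310.0 ± 4.14 FPKM), ALDOC (117 ± 6.23), GPI (90.9 ± 2.35), PFKL (69.1 ± 0.771), HK2 (31.3 ± 1.61), SLC2A1 (29.5 ± 0.856), SLC2A3 (28.3 ± 1.93), PFKM (17.2 ± 1.17) and PFKP (12.8 ± 2.08). HK2 overlapped SLC2A1, and SLC2A1 overlapped SLC2A3. On this scale, with HK1 left out, PFKP thus went from the third to the lowest place, and ALDOC from the seventh to the second. The order was not checked on another length scale.

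The share of each gene in the summed FPKM of its step gives the make-up of the step. SLC2A3 made up 18.1% ± 0.831 of the uptake pair with DMSO and 49.0% ± 1.04 with THZ1 (SD, n = 3 each). Whether SLC2A3 passes SLC2A1 with THZ1 depended on the scale, since its share was 54.6% from counts per kilobase of annotated exon. In phosphofructokinase, PFKL went from 45.03% ± 0.755 to 69.7% ± 1.08 and PFKP from 34.8% ± 0.602 to 12.9% ± 2.004. PFKM, at 20.2% ± 0.655 and 17.4% ± 1.13, was the second most abundant of the 3 with THZ1 and the least abundant with DMSO. ALDOC made up 6.54% ± 0.198 of aldolase with DMSO and 27.5% ± 1.03 with THZ1. HK2 made up 74.7% ± 2.48 and 77.3% ± 1.67 of hexokinase, from counts per kilobase of exon for want of an FPKM row for HK1, and its libraries overlapped between treatments. Treatments did not overlap for the shares in the other 3 steps.

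**Figure D3:**
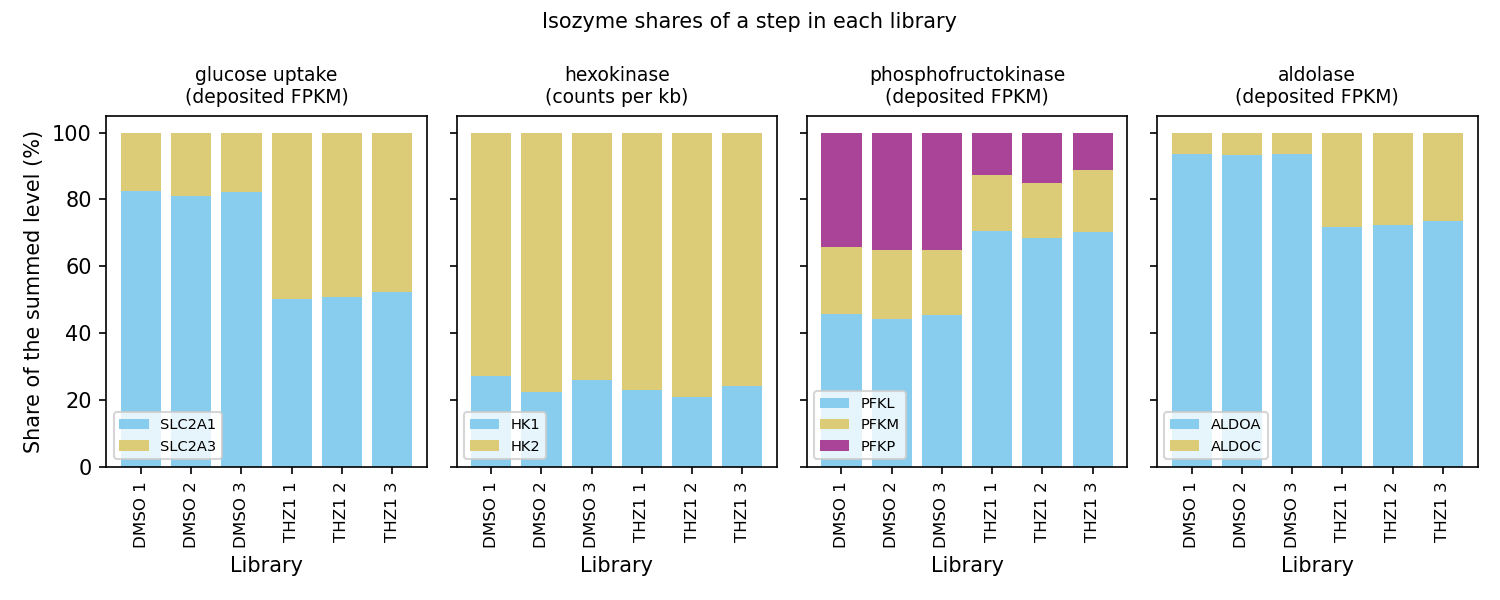
Share of each gene in the summed level of its step, in percent, as stacked bars for the 6 libraries, from deposited FPKM or, for hexokinase, from counts per kilobase of exon. With THZ1 the SLC2A3 share is 49.0% and the PFKL share 69.7% on average, while the hexokinase shares overlap between treatments.

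Summed over the members of each step, the uptake pair and the isomerase were higher with THZ1, and the other 3 steps were lower. The pair is not all of the transporter genes with counts in these cells. The 14 other genes of the SLC2A and SLC5A families described below summed to 112 to 124 CPM with DMSO and 75.2 to 82.5 CPM with THZ1. The pair summed to 58.7 to 67.5 and 111 to 123 CPM. These sums take no account of transcript length or of what each protein carries, so they do not measure glucose uptake. The uptake pair summed to 41.0, 35.6 and 38.1 FPKM with DMSO and 60.8, 57.1 and 55.4 FPKM with THZ1, a log2 difference of 0.60 (95% interval 0.40 to 0.79). Phosphofructokinase summed to 255, 264 and 251 FPKM and to 97.5, 100.2 and 99.5 FPKM, a log2 difference of −1.37 (−1.44 to −1.31). These steps did not overlap between treatments, in opposite directions. Aldolase went from 691, 678 and 718 FPKM to 429, 435 and 418 FPKM, a log2 difference of −0.70 (−0.78 to −0.62), its loss of ALDOA being larger than the gain of ALDOC. Hexokinase, in CPM per kilobase of exon, was at 37.3, 39.4 and 34.9 with DMSO and 15.98, 16.5 and 15.3 with THZ1, a log2 difference of −1.22 (−1.38 to −1.06). The isomerase GPI had a log2 FPKM difference of 0.37 (0.30 to 0.44). Each step had p = 0.1 by the two-sided exact permutation test, also after adjustment over the 5 steps. Every step kept its direction on each of the other scales tried, but sizes depended on the scale. By counts per kilobase of merged exons the log2 differences were 0.84 (0.64 to 1.04) for uptake and 0.53 (0.46 to 0.60) for GPI. They were −1.12 (−1.17 to −1.07) for phosphofructokinase and −0.46 (−0.72 to −0.20) for aldolase. Each estimate lies outside its FPKM interval above, so those intervals do not cover the choice of scale. The FPKM intervals may also miss part of the spread between libraries. For aldolase the standard error was 0.029 on FPKM and 0.094 by CPM without length, where the interval was −0.82 to −0.29. The standard errors of the other FPKM totals were closer to those by CPM. They were 0.071 and 0.072 for uptake, 0.024 and 0.025 for GPI, and 0.024 and 0.019 for phosphofructokinase.

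**Figure D4:**
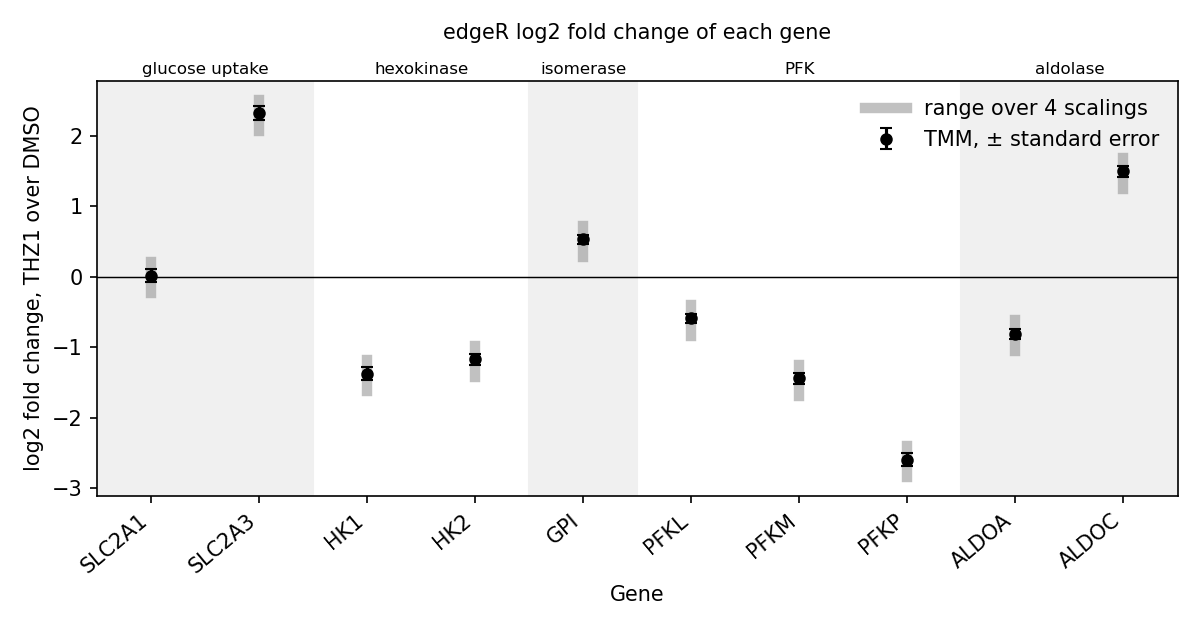
Log2 fold change of each gene, THZ1 over DMSO: points with standard error are from edgeR with TMM scaling, and grey bars span 4 scalings (TMM, RLE, upper quartile and library sizes alone). The grey bar of SLC2A1 crosses 0, and the bars of the other 9 genes do not.

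The rest of the pathway was described from lists written from general knowledge. Among 8 other genes of upper glycolysis, 5 were tested, of which 4 were lower and 1 higher, with a median log2 fold change of −1.41. PGM1, a phosphoglucomutase that joins glycogen to glucose-6-phosphate, was the lowest at −2.70 (72.1 ± 6.47 to 11.1 ± 1.24 CPM, SD, n = 3, edgeR adjusted p = 4.7e-20), and ITGB3BP overlaps it on the opposite strand. HK3 and HKDC1, of the hexokinase family, had mean levels of at most 0.356 CPM in either treatment and were not tested.

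Of 14 other genes of the SLC2A and SLC5A transporter families, listed whatever their main substrate, 7 were tested, 2 being higher and 3 lower, with a median of −0.02. SLC2A6 was the highest and rose from 5.21 ± 1.33 to 12.9 ± 1.26 CPM (log2 fold change 1.303, edgeR adjusted p = 1.2e-07). SLC5A2, a sodium-coupled transporter of the kidney, was the lowest at −3.29 (33.5 ± 3.32 to 3.42 ± 0.950 CPM, edgeR adjusted p = 6.7e-18), and it overlaps RUSF1 on the opposite strand, which had 2374 counts over the 6 libraries.

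The flux regulators set the level of fructose-2,6-bisphosphate, an activator of phosphofructokinase, or limit uptake. Of 8 listed, 7 were matched and 4 tested, with 2 higher, 0 lower and a median of 0.61. PFKFB3, a kinase that makes this activator, rose from 29.8 ± 0.796 to 73.3 ± 5.24 CPM, a log2 fold change of 1.3002 (edgeR adjusted p = 1.3e-14), while the 3 phosphofructokinase genes fell. ARRDC4, an arrestin that restrains glucose uptake, had a log2 fold change of 1.42 (3.15 ± 0.113 to 8.45 ± 2.32 CPM, edgeR adjusted p = 1.0e-06), a call that the deposited FPKM values did not give. PFKFB4 (−0.15, edgeR adjusted p = 0.571) and TIGAR, which breaks the activator down (−0.08, edgeR adjusted p = 0.53), were not called, but both were called lower on the deposited FPKM values. Of 5 phosphatases that run these steps backward, G6PC3 alone was tested, with −0.22 (edgeR adjusted p = 0.0607), and FBP1 and FBP2 had 0 counts in every library.

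Lower glycolysis had 11 listed genes, of which 10 were tested, 5 being higher and 5 lower, with a median of 0.12. ENO1, the main enolase, was the lowest at −0.89 (1418 ± 121 to 766 ± 19.5 CPM, edgeR adjusted p = 4.5e-13). PKLR, the pyruvate kinase of liver and red cells, had 0 counts with DMSO and 2.38 ± 0.557 CPM with THZ1, at least 3.25 higher on the log2 scale against a floor of 3 counts per library (edgeR adjusted p = 1.7e-09), and it overlaps HCN3 on the opposite strand.

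Among 7 transcription factors known for control of glycolysis genes, 1 was higher and 4 were lower, with a median of −0.20. MYC was the lowest, at −2.89 (edgeR adjusted p = 3.2e-25), from 639 ± 27.0 to 86.1 ± 7.03 CPM. HIF1A, the oxygen-regulated factor, rose by 0.46 (117 ± 14.4 to 161 ± 4.87 CPM, edgeR adjusted p = 3.7e-06), and its partner ARNT fell by 0.66 (edgeR adjusted p = 4.6e-07). SP1 had −0.40 (edgeR adjusted p = 8.4e-05) and MLXIP −0.20 (edgeR adjusted p = 0.0101), whose call was lost with RLE or upper quartile factors, with DESeq2 and with a stricter filter. MLX (−0.10, edgeR adjusted p = 0.239) and ESRRA (0.10, edgeR adjusted p = 0.289) were not called, but both outcomes depended on the processing. ESRRA was called higher with upper quartile factors and with the stricter filter of 10 counts per library, and MLX was called lower with library sizes alone, without the filter and on the deposited FPKM values. HIF1A, MLX and ESRRA share bases with genes on the opposite strand.

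**Figure D5:**
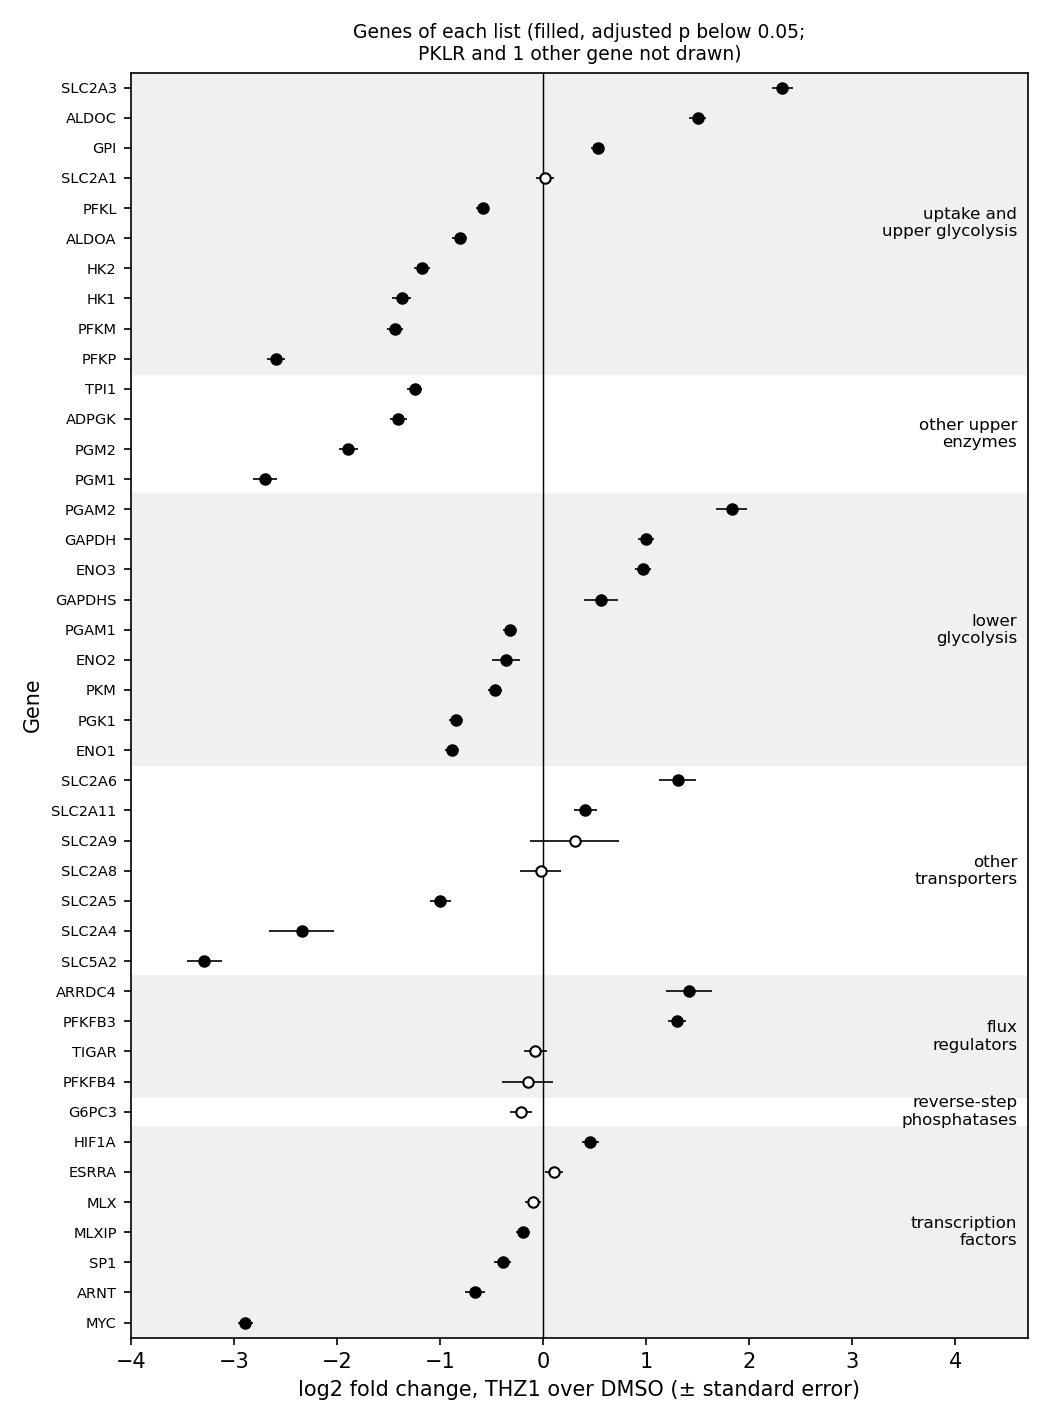
Log2 fold change with standard error of the genes drawn, THZ1 over DMSO, for genes of uptake and upper glycolysis and of the lists of the rest of the pathway; filled points had an adjusted p-value below 0.05 by edgeR. PKLR and 1 gene of the other upper enzymes are not drawn. The 4 other upper enzymes drawn all lie below 0, and MYC is the lowest of the transcription factors at −2.89.

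The genes most like SLC2A3 and PFKP, the extremes of the 10, were sought among 8962 protein-coding genes with a mean of at least 10 CPM, by the Euclidean distance of centred log2 CPM over the 6 libraries. Nearest to SLC2A3 were BRD8 (distance 0.14), FUT11 (0.15) and SUPT5H (0.16), with log2 fold changes of 2.23, 2.43 and 2.31. Nearest to PFKP were FARSB (0.18), PEMT (0.19) and TTC13 (0.20), with log2 fold changes of −2.72, −2.72 and −2.59. The 6 libraries fall into 2 treatments, so a short distance reflects mainly a like fold change and a like order of replicates.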

How the data were processed

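RNA-SEQ counts per gene of 3 DMSO-treated and 3 THZ1-treated libraries were used. Per the methods, the authors filtered the reads, mapped them to GRCh37 with STAR and made the deposited raw counts with htseq-count. The submitters' processing notes also name cutadapt. The annotation and strand setting are not given in the sources used here. The authors calculated FPKM with RSEM and deposited them on a log2 scale, read here as log2(FPKM + 1) and taken back to linear values. Between libraries of a treatment the sorted log2 values differed by a median of at most 0.00170, against 0.00649 or more for log2(CPM + 1). The same table's p-values, FDR and log2 fold changes are the authors' comparisons and were not used.

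Symbols, coordinates and exon lengths came from GENCODE 44 mapped to GRCh37. Genes were filtered with filterByExpr (minimum count 10, minimum total 15), scaled by TMM and tested with edgeR 4.0.16, adjusted by Benjamini-Hochberg. Isozyme ratios (0.5 added to each count) and step totals were tested by two-sided exact permutation over libraries, with 95% intervals from the pooled SD on 4 degrees of freedom. The design had planned all shares and totals from FPKM. HK1 has no FPKM row, so hexokinase was taken from TMM-scaled CPM per kilobase of merged exons. The floor behind the bound for PKLR was 3 counts in a DMSO-treated library, 0.249 CPM after TMM scaling, and covers counting error only. Replicate libraries differed beyond sampling noise (chi-square per gene 1.81 to 9.35), and each was kept.

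The 10 genes, the lists and the tests were chosen with earlier results of these data known. All 10 genes were named, with the highest and lowest tested gene of each other list, all tested flux regulators and transcription factors, and the 3 nearest genes of the highest and lowest of the 10. Some results are not reported here. Other genes (markers, near copies, overlapping genes, genes with too few counts to test, and GAPDH) fall outside this rule and were picked with their values in view. TXNIP, PECAM1 and 2 listed pseudogenes were not matched and are not analysed here. Promoter windows came from RefSeq (GRCh38.p14) and were not joined to GRCh37 coordinates.

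As alternatives, the scaling was changed (RLE, upper quartile, library sizes alone), and so were the tool (DESeq2 1.42.0) and the filters. Others were a replicate block, each library left out, limma 3.58.1 on the FPKM values (pseudocount 1 or 0.1, mean FPKM of at least 0.1 or no filter), a pseudocount of 2 for ratios, other length scales and a fold threshold. Leaving out mitochondrially encoded genes and scaling by the MANE Select transcript were added after seeing the data. The scripts were tested on simulated data. R 4.3.3 and Python 3.11.15 (scipy 1.17.1, numpy 2.4.6, matplotlib 3.10.9, pandas 2.3.3) were used.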

Additional observations from a re-analysis of the deposited data

How the results depend on the processing

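Of the 10 genes, all but SLC2A1 kept their direction and their call under every alternative that could be fitted for them, and HK1 was not part of the FPKM fits. SLC2A1 had a log2 fold change of 0.02 and was called at 0.21 with upper quartile factors and at −0.23 with library sizes alone. It was −0.071 without the filter and, in limma fits on FPKM, −0.082 with a pseudocount of 1 (with or without the filter) and −0.085 with 0.1, without a call. Leaving out a library gave −0.066 to 0.057, below 0 without DMSO replicate 2 (−0.066), DMSO replicate 3 (−0.0020) or THZ1 replicate 1 (−0.013). Over the same genes as in the main fit, the median log2 fold change shifted by 0.19 with upper quartile factors and −0.25 with library sizes alone. The median differed from that of the main fit by 0.42 without the filter and by −0.18 or −0.21 on FPKM. Those medians were taken over other sets of genes, so these differences do not measure a shift of the same genes. Without the filter the value of SLC2A1 fell while the median rose. At a log2 fold change of 1.5 or more, 1 of the 10 was higher and 1 lower.

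From FPKM the change of the log2 ratio was 2.10 for SLC2A3/SLC2A1 and 2.43 for ALDOC/ALDOA. Step totals by counts per kilobase of merged exons, by CPM without length and by MANE Select length were 0.84, 0.89 and 0.83 for uptake, 0.53 on all 3 for the isomerase, −1.12, −1.07 and −1.09 for phosphofructokinase, and −0.46, −0.56 and −0.55 for aldolase. By merged exons the shares with DMSO were 19.6% for SLC2A3, 49.8% for PFKL, 22.7% for PFKM, 27.5% for PFKP and 6.90% for ALDOC, and with THZ1 54.6% for SLC2A3, 71.9% for PFKL and 9.88% for PFKP. By MANE Select length the shares with DMSO were 19.1% for SLC2A3, 62.0% for HK2, 53.2% for PFKL, 18.5% for PFKM, 28.3% for PFKP and 4.91% for ALDOC, and with THZ1 53.9%, 65.3%, 75.4%, 14.6%, 9.99% and 20.3% in the same order.

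In the lists, library sizes alone gave 1 other transporter higher, 1 flux regulator lower and 1 phosphatase (G6PC3) lower. Upper quartile factors gave 3 genes of lower glycolysis lower and 2 transcription factors higher. A minimum of 10 counts in every library gave 0 other upper glycolysis genes higher and 2 transcription factors higher. The 3 limma fits each gave 1 other transporter, 0 other upper glycolysis genes, 1 flux regulator and 2 genes of lower glycolysis higher, and 2 flux regulators and 1 phosphatase lower. G6PC3 was also lower without the filter, and leaving out libraries gave 0 to 1 phosphatase lower, 1 without DMSO replicate 2, THZ1 replicate 2 or THZ1 replicate 3. In lower glycolysis, GAPDHS lost its call with library sizes alone (edgeR adjusted p = 0.0836). ENO2 lost its call with upper quartile factors (edgeR adjusted p = 0.253) and with DESeq2 (DESeq2 adjusted p = 0.0945). It also lost it with the minimum of 10 counts (edgeR adjusted p = 0.123) and without THZ1 replicate 3 (edgeR adjusted p = 0.0572). Not every changed call is listed here, and the cause of these changes was not tested.

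Over all genes tested, same-numbered libraries did not deviate together (correlations −0.0040, 0.00097 and 0.0206). This gave no sign that the numbers pair samples, but it cannot exclude it, as differently numbered libraries were not compared. With the replicate number as a block, 7181 genes were called higher and 6786 lower, against 7224 and 6826, 3 and 6 of them among the 10 genes.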

Other observations

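GAPDH, the lower glycolysis gene often used as a loading control, was named after its values were seen. Its level was 3393 ± 395 CPM under DMSO and 6784 ± 85.3 CPM under THZ1 (SD, n = 3 each), a log2 fold change of 1.00 (edgeR adjusted p = 2.0e-13), and 0.75 to 1.19 over the other scalings. On the deposited FPKM values limma gave −0.09 (adjusted p = 0.231). These FPKM values were identical, at 5156.71, in DMSO replicate 2 and THZ1 replicates 2 and 3, which had 36951, 48353 and 51333 counts. DMSO replicates 1 and 3 shared 5819.9 FPKM at 40358 and 45177 counts. The FPKM result for GAPDH thus cannot be set against the change in counts. Shared FPKM values were not confined to GAPDH. PFKL, of the 10 genes, had 68.6478 FPKM in THZ1 replicates 1 and 2 at 1821 and 1731 counts. ENO1 had 351.752 FPKM in the same libraries at 5752 and 5446 counts. Why values were shared was not tested, and the order, shares and step totals from FPKM above rest on the same values. A lncRNA on the opposite strand of GAPDH, ENSG00000269968, had 118623 counts over the 6 libraries.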
